A study of Homo sapiens with 2 samples.

Results

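These results concern the sGCβ1 ChIP intervals that lay close to one another. An interval was counted as clustered when its deposited summit lay within 10000 bp of the summit of another interval on the same chromosome, and such intervals were chained into clusters. The rule took in 642 of 4169 intervals (15.4%), which formed 275 clusters; the other 3527 are called single intervals. The data are 1 anti-sGCβ1 ChIP library and 1 antibody-free input library, both from U-87 MG, an established human glioma line, here overexpressing sGCβ1 and grown in Eagle's medium with serum and no further treatment. Overexpression is thus common to both libraries, and there is no library from cells without it. No file of the input library was used, there was no replicate, and the sequencing depth is unknown. Differences between clustered and single intervals are described without a test, and the 95% intervals on shares are exact binomial intervals that cover counting error only.

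Soluble guanylate cyclase answers nitric oxide by making cyclic GMP, and its haem sits in the sGCβ1 subunit. Wide regulatory domains, enhancers near their promoters and arrays of small genes are all settings in which protein-bound sites can lie side by side. Genes for tRNAs and vault RNAs are found in such arrays. They are transcribed by RNA polymerase III from control elements inside the gene, the A box and the B box, which transcription factor TFIIIC recognises. Another short element met here is the site of AP-1, the dimer of JUN and FOS proteins, which is common in enhancers. The strength of an interval is given as its height, the authors' maximum fragment density in it, on a scale that the sources used here do not describe.

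Sequences from the tallest clusters are shown first. Within 100 bp on each side of each summit, both strands were searched for an A box word, TNGNNNAG, followed 15 to 80 bases later on the same strand by a B box word, GTTCNANNC, where N is any base. This pair is called tRNA-like here; a match is a description of letters, not of a working promoter. All coordinates are hg19 (GRCh37), sequences are written 5′ to 3′ on the strand named, and capitals mark the A box word at the left end and the B box word at the right end.

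The vault RNA cluster on chromosome 5 is shown because its tallest interval was the highest of all clustered intervals. Its members had heights of 96, 129 and 193. Their summits lay 20, 50 and 49 bp downstream of the starts of VTRNA1-1, VTRNA1-2 and VTRNA1-3, genes for the small RNAs of the vault particle. The stretches lie inside these genes, and the 2 of equal length, 55 bases, differ at 8 positions.
VTRNA1-1, chr5:140090870-140090934, + strand: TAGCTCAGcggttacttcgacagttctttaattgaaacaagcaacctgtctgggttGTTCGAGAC
VTRNA1-2, chr5:140098520-140098574, + strand: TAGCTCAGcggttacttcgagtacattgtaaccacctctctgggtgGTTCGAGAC
VTRNA1-3, chr5:140105753-140105807, + strand: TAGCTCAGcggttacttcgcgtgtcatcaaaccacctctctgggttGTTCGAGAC

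A pair of clusters on chromosome 14, between the RNASE11 and OR6S1 genes, is shown because one array repeats the order of the other. The first cluster had heights of 128 and 122, and the next, 11648 bp farther on, had 134, 100 and 85. The leading stretches of both clusters are 63 bases long and differ at 1 position, and the ones after them are 54 bases long, lie on the - strand and differ at 2 positions.
Cluster of 2, height 128, chr14:21078298-21078360, + strand: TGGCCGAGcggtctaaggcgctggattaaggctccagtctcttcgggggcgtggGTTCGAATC
Cluster of 2, height 122, chr14:21081961-21082014, - strand: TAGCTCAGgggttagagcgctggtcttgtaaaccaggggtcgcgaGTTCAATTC
Cluster of 3, height 134, chr14:21093536-21093598, + strand: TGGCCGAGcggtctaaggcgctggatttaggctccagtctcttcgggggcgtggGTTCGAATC
Cluster of 3, height 100, chr14:21099331-21099384, - strand: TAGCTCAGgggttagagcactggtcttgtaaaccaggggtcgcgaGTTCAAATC
Cluster of 3, height 85, chr14:21101172-21101224, + strand: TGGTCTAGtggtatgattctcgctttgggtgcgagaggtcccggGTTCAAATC

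One stretch of 47 bases recurred, letter for letter, in 5 clustered intervals, more than any other. They belonged to 5 clusters, 4 on chromosome 6 and 1 on chromosome 14. Their heights were 70, 73, 28, 123 and 150, so identical letters stood under both a low interval and one of the tallest.
Shared stretch, chr6:26554365-26554411, + strand: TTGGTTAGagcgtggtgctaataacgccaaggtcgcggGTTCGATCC

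The AP-1 word, TGANTCA, is shown from clusters of low intervals, where it was about as frequent as at single intervals of low height. Of the 3 clusters of 2 low intervals that held the word in both members and had the greatest summed heights, 2 are shown, with the word in capitals and 17 bases on each side, all read on the + strand. They lay between TFAP2C and BMP7, with heights of 19 and 21, and inside SYNJ2, with 18 and 17.
TFAP2C to BMP7, first, chr20:55606784-55606824: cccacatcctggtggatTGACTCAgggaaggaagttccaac
TFAP2C to BMP7, second, chr20:55616066-55616106: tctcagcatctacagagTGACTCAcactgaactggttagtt
SYNJ2, first, chr6:158447150-158447190: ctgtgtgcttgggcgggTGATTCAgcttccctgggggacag
SYNJ2, second, chr6:158452571-158452611: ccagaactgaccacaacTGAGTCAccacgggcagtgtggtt

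Most clusters were pairs. Of the 275, 227 (82.5%) held 2 intervals, 30 held 3, 7 held 4, and 11 held from 5 to 10. The distance from first to last summit had a median of 4928 bp and ran from 736 to 37152 bp. Between neighbouring summits the 367 gaps had a median of 4240 bp, and between neighbouring edges 102 of 367 gaps (27.8%) were at most 1000 bp. The rule itself set these distances, so they describe the members only. Just inside the limit were the ZBTB26 and RABGAP1 promoters, with heights of 14 and 16 and summits 9920 bp apart. Just outside it were a pair near NEDD8 and TINF2, both of height 14 and 10016 bp apart, and a pair in introns of PRKAG2, with heights of 25 and 16 and 10048 bp apart.

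Clustered intervals stood at protein-coding gene starts less often than single ones and outside protein-coding genes more often. A summit was placed at a promoter when it lay within 1000 bp of an annotated protein-coding transcript start, in a gene body when it lay elsewhere inside a protein-coding gene, and outside in all other cases. At promoters were 108 of 642 clustered intervals (16.8%, 95% interval 14.01 to 19.9), against 1283 of 3527 single intervals (36.4%, 34.8 to 37.99). Outside genes were 336 clustered intervals (52.3%, 48.4 to 56.3) and 1167 single intervals (33.1%, 31.5 to 34.7). The gene body shares were close, at 30.8% and 30.5%, and 185 of the 198 clustered intervals in gene bodies lay in introns. A CpG island, the C- and G-rich stretch found at many promoters, was listed by the authors for 22.3% of clustered and 37.3% of single intervals.

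**Figure D1:**
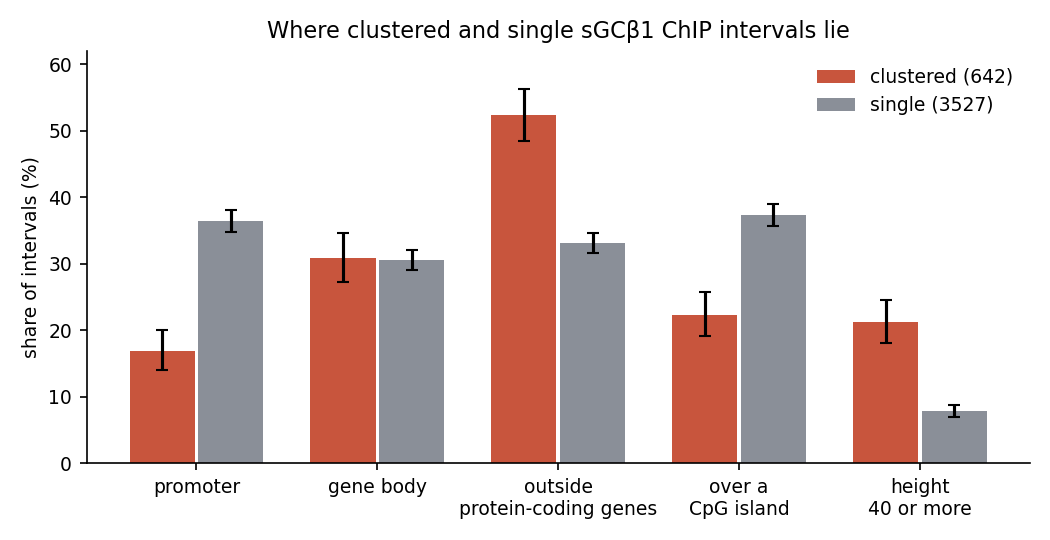
Share of intervals (%) in each position class, over a CpG island, and with a height of 40 or more, for 642 clustered and 3527 single intervals; error bars are exact 95% binomial intervals. Clustered bars are lower at protein-coding promoters (16.8% against 36.4%) and over CpG islands (22.3% against 37.3%). They are higher outside protein-coding genes (52.3% against 33.1%) and at heights of 40 or more (21.2% against 7.80%). The CpG island and height bars pool all position classes.

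The typical clustered interval was about as tall as a single one, but the tall end differed. The median height was 15 in clustered and 14 in single intervals, with upper quartiles of 26 and 18. A height of 40 or more, called tall here, was reached by 136 clustered intervals (21.2%, 18.1 to 24.6) and 275 single intervals (7.80%, 6.93 to 8.73). Tall intervals outside genes were clustered in 107 of 190 cases (56.3%), whereas tall intervals at promoters were clustered in 19 of 199 (9.55%). Without chromosome 6 the tall share was 11.6% of clustered and 7.30% of single intervals. The median score, a -10 log10 transform of the MACS p-value, was 114.5 in clustered and 96.99 in single intervals, and the median length was 1405 bp and 1278 bp.

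For description, clusters were sorted by whether their intervals reached a height of 40, a limit chosen after the heights were seen. In 33 clusters every interval was tall, in 216 none was, and 26 held both; these are called tall, low and mixed clusters. The 95 intervals of tall clusters had heights from 43 to 193 with a median of 72, and the 473 intervals of low clusters had heights from 8 to 38 with a median of 14. In all, 11 clustered intervals had a height between 36 and 43, near the limit. Low clusters occurred on 22 chromosomes, all the autosomes, and tall clusters on 7, with 19 of the 33 on chromosome 6.

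**Figure D2:**
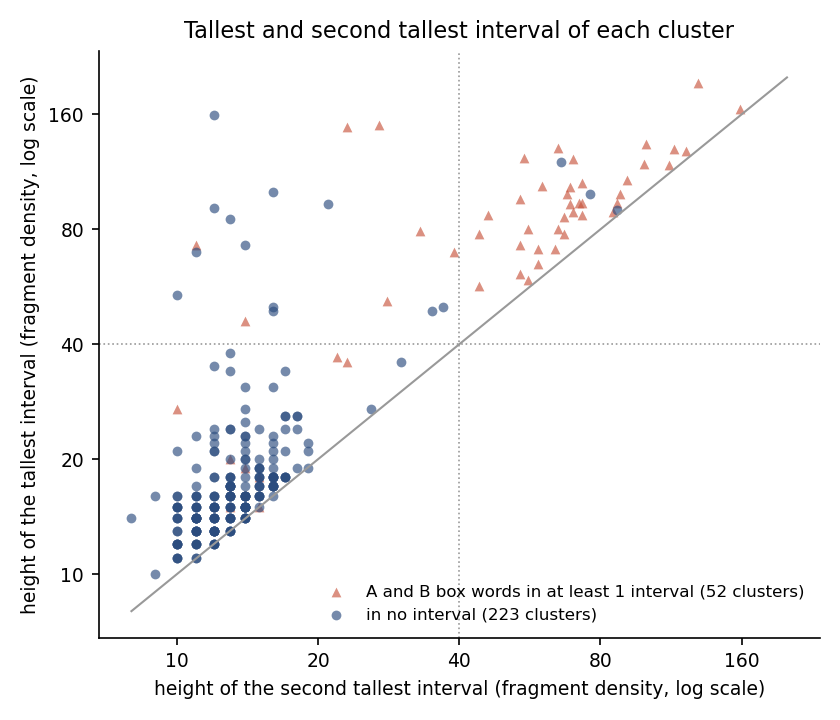
Height of the tallest (y axis) against the second tallest (x axis) interval of each of 275 clusters, in fragment density on log scales; the solid line marks equality and dotted lines mark a height of 40. Triangles, the 52 clusters with a tRNA-like interval, lie mostly above 40 on both axes, and circles, the 223 others, lie mostly below 40.

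Heights and positions of neighbours were compared within clusters, with no value for unlinked intervals beside them. The taller of 2 neighbours was at most 1.5 times the other in 277 of 367 pairs (75.5%), and both lay in the same position class in 284 pairs (77.4%). By score in place of height, the tallest interval was under 1.5 times the next in 53.5% of clusters, against 76.0% by height. The tallest interval of a cluster exceeded the second by a median ratio of 1.2 in low clusters, 1.29 in tall clusters and 3.09 in mixed clusters. Sorting by height itself favours a larger ratio in mixed clusters, so these medians are descriptions only. The nearest heights among clusters with a tall interval were those of RNY3 and RNY1, genes of the Ro-associated Y RNAs, with 87 and 90. The greatest ratio was at PAMR1, where intervals of height 159 and 12 both lay near annotated starts of that gene, 3680 bp apart. NAA30, an N-terminal acetyltransferase subunit gene, had 91 at its start and 12 at 8160 bp from that summit. SMARCC2, a chromatin remodelling subunit gene, had 73 at its promoter and 11 outside, and the interval of 73 was tRNA-like.

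The tRNA-like pair was most common at tall intervals outside protein-coding genes. It was found at 112 clustered intervals (17.4%) and 144 single intervals (4.08%), against 2.10% and 1.503% of windows of the same length 2000 bp to either side. Among intervals of tall clusters 70 of 95 (73.7%) held it, and among intervals of low clusters 8 of 473 (1.69%). At tall intervals outside genes the share was 84 of 107 (78.5%) in clustered and 54 of 83 (65.1%) in single intervals, so the letters were common there whether the intervals were clustered or not. At tall intervals at promoters it was 7 of 19 clustered (36.8%) and 24 of 180 single (13.3%). Without chromosome 6 the pair was at 9.89% of clustered and 3.67% of single intervals. A narrower B box word, GTTCGANNC, every match of which is also a match to the wide one, was found at 14.95% of clustered and 4.51% of single intervals, and without chromosome 6 at 8.21% and 4.18%. The centre of the stretch lay at a median of 25.75 bp from the summit, and summits themselves fall on bins of about 32 bp.

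The AP-1 word was found mainly at intervals under 40, in clustered and single intervals alike. It stood at 119 clustered intervals (18.5%, against 6.39% of their flanks) and 724 single intervals (20.5%, against 6.01%). In low clusters it was found at 112 of 473 intervals (23.7%), beside 22.2% of single intervals under 40, and in tall clusters at 4 of 95. Among intervals under 40 in gene bodies the share was 29.8% in clustered and 29.7% in single intervals, and outside genes it was 24.5% and 32.1%. At promoters it was 2.25% in clustered and 5.17% in single intervals under 40. In 94 of 216 low clusters at least 1 interval held the word, and in 17 at least 2 did.

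**Figure D3:**
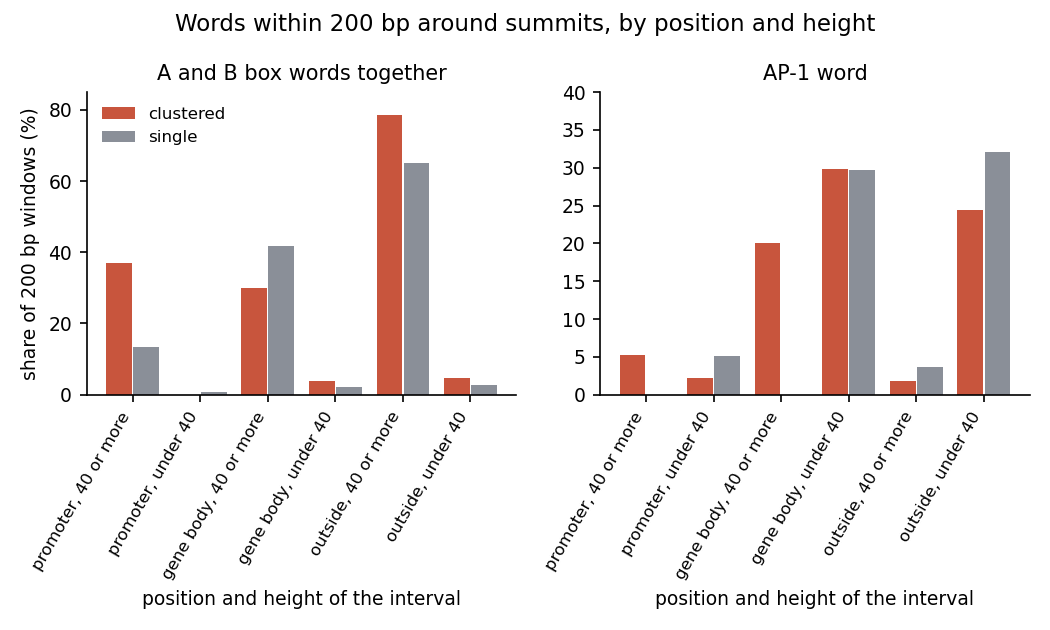
Share of 200 bp windows around summits (%) with the tRNA-like pair (left) and the AP-1 word (right), by position and by height of 40 or more or under 40; clustered bars stand left of single bars. The pair is found at 78.5% of clustered and 65.1% of single tall intervals outside protein-coding genes. The AP-1 word is found at 29.8% and 29.7% of intervals under 40 in gene bodies.

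Other words were searched in the same windows. The E-box CACGTG was found at 3.12% of clustered and 7.37% of single intervals (2.10% and 2.34% of their flanks), the ETS word CCGGAAG at 2.18% and 4.39% (flanks 0.701% and 0.581%), and the NRF1 word GCGCANGCG at 0.467% and 1.87% (flanks 0.234% and 0.0851%). At promoters with a height under 40 the ETS word was at 10.1% of clustered and 9.43% of single intervals. The cyclic AMP response element TGACGTCA was found at 0.779% and 0.851%. The CCAAT box was found at 23.7% and 22.1%, about the share in their flanks (23.3% and 25.1%). All were searched on both strands, and a match to TGACGTCA is not in itself a match to the AP-1 word.

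Most tall clusters lay in gaps between protein-coding genes that also hold tRNA genes. In current RefSeq gene order, used for names and neighbours only, at least 1 tRNA gene stood between the protein-coding genes that flank 29 of the 32 tall clusters with matched flanks, 15 of 26 mixed and 3 of 214 low clusters. These are counts of clusters, not of separate gaps, because several tall clusters share a gap, as between ZNF184 and H2BC13. The annotation used for positions names no tRNA genes, so no interval is assigned to a particular one. Copies of tRNA genes are nearly identical, and the authors kept only reads with a single alignment: 41 of the 112 tRNA-like intervals shared their stretch with another clustered interval, so their heights are uncertain. Of the 33 tall clusters 3 had no tRNA-like interval. They were the Y RNA cluster, a cluster at RN7SL3 and RN7SL2, and a pair of heights 120 and 66 on chromosome 6 whose nearest protein-coding gene was H2BC13. RN7SL3 and RN7SL2 encode the RNA of the signal recognition particle, and their intervals had heights of 76 and 99 with summits 56 bp downstream and 1 bp upstream of the starts.

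Chromosome 6 held more clusters than any other chromosome, 37, with 106 of its 305 intervals clustered (34.8%). All of its 24 tall and mixed clusters lay between summits at 26305696 and 28921024, the stretch of histone and tRNA genes, and 59 of their 79 intervals (74.7%) were tRNA-like. The largest of them, between SCAND3 and TRIM27, had heights of 49, 87, 94, 57, 72, 49 and 59. Every one of its 7 intervals was tRNA-like. The next cluster, 41984 bp farther on, also had 7 of 7, with heights of 44, 34, 65, 103, 60, 41 and 69. Between H4C8, a histone H4 gene, and BTN3A2, 6 intervals had heights of 108, 91, 61, 85, 84 and 59, and 3 were tRNA-like. Near ZNF184, a zinc finger gene, 5 had 62, 57, 73, 47 and 94. Introns of POM121L2 held 5 more, of 49, 45, 53, 56 and 59, the one tall cluster made of gene body intervals alone. HMGN4, a nucleosome-binding protein gene, was assigned 5 clustered intervals with heights from 31 to 106, in 2 clusters. Of 35 canonical histone genes with an interval, 1 (HIST1H2AH) had a clustered one (2.86%, beside 8.65% of all genes with an interval). That interval, of height 96, was tRNA-like.

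Tall and mixed clusters on other chromosomes also held rows of tRNA-like intervals. On chromosome 11 between OR4D9 and OSBP the heights were 14, 165, 130, 83 and 159, and the 4 tall intervals were tRNA-like. On chromosome 16 between ZNF213 and ZNF200, 4 intervals of 99, 88, 69 and 45 were followed after 13088 bp by 8 of 40, 61, 38, 54, 32, 23, 40 and 30. All of the first 4 and 6 of the next 8 were tRNA-like. On chromosome 14 between OR6S1 and ANG, heights of 23, 22 and 148 lay in one cluster, all tRNA-like. Near TRIM41, a ubiquitin ligase gene, both intervals, of 112 and 118, were tRNA-like. At HSPA6, a heat shock protein gene, 3 tRNA-like intervals had 48, 56 and 80. Another pair of mixed clusters held 1 tRNA-like interval each. Beyond NARF the heights were 12, 131 and 65, and the one of 12 was tRNA-like, whereas at ZNF839 they were 27 and 150, and the one of 150 was.

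The clusters sorted into a few compositions. In 114 of 275 (41.5%) every interval lay outside protein-coding genes, in 67 (24.4%) every interval lay in a gene body, and in 39 (14.2%) a promoter stood with a gene body interval. A promoter stood with an outside interval in 26 clusters (9.45%), and 18 (6.55%) were promoters only. A gene body with an outside interval made 7, and all classes met in 4.

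**Figure D4:**
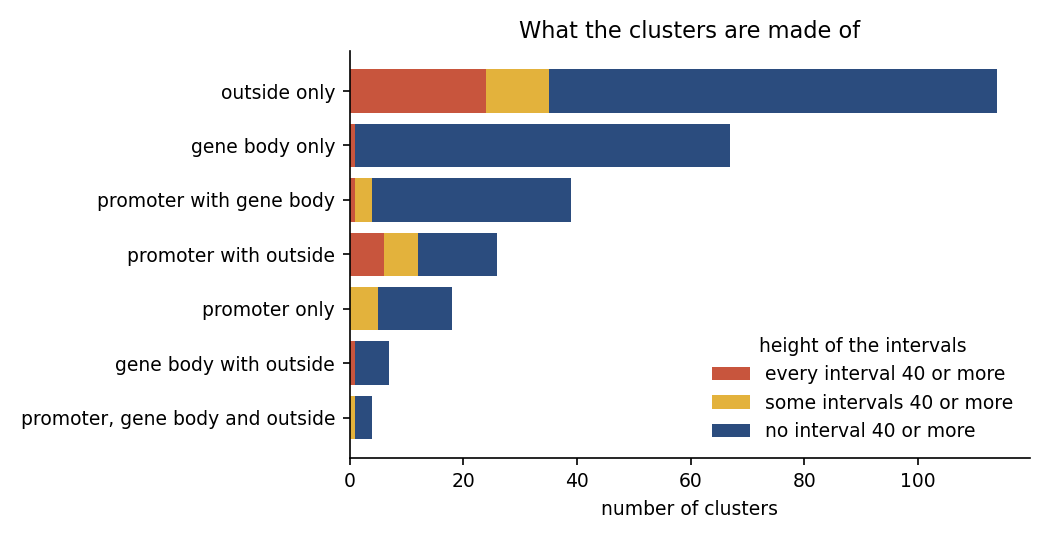
Number of clusters of each composition (bars, 275 in all), coloured by whether every interval, some or none had a height of 40 or more. The 114 clusters outside protein-coding genes hold 24 of the 33 tall clusters, whereas 66 of 67 clusters in gene bodies have no tall interval.

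The largest cluster, and another of 6 intervals near it, lay outside protein-coding genes along a pair of neighbouring long non-coding RNA genes on chromosome 11. NEAT1, the scaffold RNA of paraspeckles, had the largest cluster of the series, with 10 intervals. Their heights, in genomic order, were 20, 14, 15, 13, 9, 9, 12, 14, 16 and 10. The first lay at -3397 bp, upstream of the NEAT1 start, 8 lay inside the gene, and the last lay 26387 bp from its start, past its end. The summits inside the gene lay between 459 and 22379 bp from its start, with none between 13019 and 22379 bp, and the tallest interval stood upstream of the gene. A cluster of 2, with heights of 13 and 20, followed after 23112 bp, and after another 11200 bp came 6 intervals at MALAT1, an RNA of nuclear speckles, with 13, 14, 14, 16, 14 and 18. Of those 6, 3 lay upstream of the MALAT1 start, at -9015, -5495 and -551 bp, and 3 inside, at 2921, 8393 and 9833 bp. None of the 10 intervals of the NEAT1 cluster or the 6 of the MALAT1 cluster held the AP-1 word or the tRNA-like pair. In the cluster of 2 between them, the interval of height 20 held the tRNA-like pair. The authors' list assigned 8 clustered intervals each to NEAT1 and to LOC100507645, in the MALAT1 region, and these were the highest numbers for any gene.

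**Figure D5:**
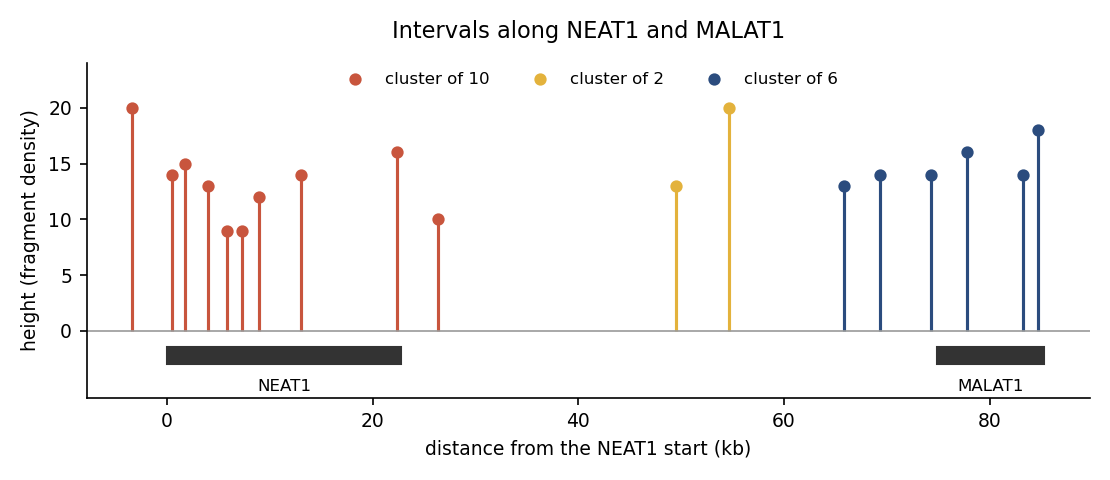
Height (fragment density) of 18 intervals against distance from the NEAT1 start (kb), coloured by cluster; black bars mark the NEAT1 and MALAT1 genes. Heights stay between 9 and 20 along both genes, with intervals inside as well as upstream of each.

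Other large low clusters lay at MIR21 and in stretches between protein-coding genes. At MIR21, a microRNA gene inside the 3′ part of VMP1 (TMEM49 in the authors' list), 5 intervals had heights of 13, 15, 12, 26 and 18. Their summits lay at -4035, -1752, -403, 1949 and 4701 bp from the MIR21 start, so the tallest was just downstream of the microRNA, and the first pair held the AP-1 word. Between ZNF217 and BCAS1 on chromosome 20, 6 intervals had 17, 15, 19, 17, 19 and 13, and 3 of them held the AP-1 word. A cluster of 4 near NFATC2 had 17, 15, 17 and 18, and one downstream of LIF, a cytokine gene, had 16, 13, 12 and 16, with summits 34204 to 50076 bp downstream of the LIF start. Of the 229 clustered intervals outside protein-coding genes with a height under 40, 90 (39.3%) lay in or within 1000 bp of the start of a long non-coding RNA gene. This share was not computed for single intervals or flanks, so it does not show whether clusters favour such genes.

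Clusters in gene bodies were low, narrow and within single genes. All 67 lay within 1 gene each, 65 were in introns throughout, and 62 were pairs. Their 141 intervals had a median height of 14 and their median span was 3776 bp. Only 5 intervals (3.55%) had a CpG island, and 46 of the 136 in low clusters (33.8%) held the AP-1 word. Single intervals in gene bodies were also low, with a median height of 14 and 1.11% tall. Of these single intervals 5.94% had a CpG island, and the AP-1 word was at 29.7% of those under 40. Members lie close together by the chaining rule, which itself favours clusters within 1 gene. PRKG1, the gene of a cyclic GMP-dependent protein kinase downstream of soluble guanylate cyclase, held 3 such pairs, with heights of 10 and 11, 12 and 13, and 15 and 15. These were 6 of its 15 intervals, and the second pair lay beside MIR605, a microRNA gene in its intron. MKLN1, a muskelin gene, held 2 pairs, of 19 and 16 and of 15 and 19. HMGA2, an architectural chromatin protein gene, held 13 and 10, and CD44, the hyaluronan receptor gene, held 12 and 15, the second with the AP-1 word. RCC1, a chromatin-bound regulator of the GTPase Ran, held 16, 13 and 14, a stretch it shares with SNHG3 and SNORA73A.

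Where a promoter was clustered with a gene body, the gene was usually the same. In 35 of 39 such clusters the gene body interval lay in the gene of the promoter interval. Distances from the nearest start of that gene had a median of 4285 bp and a range from 1249 to 10460 bp. The chaining distance and the promoter window largely set these distances in advance and also favour a shared gene, so both are descriptions only. The promoter interval was the taller in 20 of these 35, the gene body interval in 13, and they were equal in 2. CpG islands were listed for 29 of 41 promoter intervals and 3 of 43 gene body intervals of these clusters. The AP-1 word was at 0 of the 41 promoter intervals and at 7 of the 43 gene body intervals (16.3%). At JUN, which encodes an AP-1 subunit, the heights were 24 at 40 bp upstream of the start and 12 in the exon at 3160 bp. At FOSL1, another AP-1 subunit gene, a cluster shared with CCDC85B had 24 at the CCDC85B start, 14 in an exon of FOSL1 at 6476 bp from its start, and 17 at the FOSL1 start. SPRY2, an inhibitor of growth factor signalling, had 12 and 16 in the gene at 893 and 4093 bp from its start and 13 beyond its end. WWTR1, the gene of the Hippo pathway co-activator TAZ, had 11 at a promoter and 12 in an intron, where the AP-1 word stood. NT5E, the gene of an ecto-nucleotidase, had 15 at its start, with 18 and 13 in introns. WFDC3 had 22 and 15 in introns and 37 at the start it shares with DNTTIP1. SCAND3, in the chromosome 6 stretch of histone and tRNA genes, was the tall exception, with 93, 69 and 55. Its intervals of 69, at the promoter, and 55, in an intron, were tRNA-like.

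Promoter-only clusters were rich in CpG islands, as promoter intervals were in general. All 18 had at least 1 interval with an island. In all, 30 of their 37 intervals (81.1%) had one, beside 89.4% of single intervals at promoters. Some joined starts of neighbouring genes, as at OSGEP and APEX1 (49), PIP4P1 (35) and PNP (14), genes of a tRNA-modifying enzyme, a repair endonuclease, a lipid phosphatase and a purine enzyme. DNAJC9, a chaperone gene, and MRPS16, a mitochondrial ribosomal protein gene, had 50 and 37, and KIAA2013 and PLOD1, a collagen-modifying enzyme gene, had 70 and 11. In 10 of the 18 clusters some gene had annotated starts at every interval, as at PAMR1. Over all 69 clusters that mix a promoter with other positions, the tallest interval was at a promoter in 39 (56.5%).

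Further clusters combined intervals at a gene with intervals outside it. MAP3K14, the gene of the NF-κB inducing kinase, had 12 at its promoter, with 18 and 19 outside. ZNFX1 and the host gene of SNORD12C, ZFAS1, had 14 in an intron, 19 at their starts, and 13 and 15 outside ZNFX1. ZFP36L1, an mRNA decay factor gene, had 17 at its promoter, 12 in an exon and 15 past its end. SMAD7, an inhibitor of TGF-β signalling, had 14 and 11 upstream of its start, both outside the promoter window. A tall pair had 119 outside genes, where the interval was tRNA-like and was assigned to AURKB, a mitotic kinase gene, among others, and 99 in an exon of CTC1. Spliceosomal and related small RNA genes also had low clusters. RNU2-2 had 35, with 12 at the neighbouring WDR74 start, RNU5A-1 had 12 and RNU5B-1 had 15, and SCARNA2 had 26, with 18 in the adjacent TMEM167B. A cluster of 3 in CROCC introns, near RNU1-2, had 36, 23 and 19, each with a CpG island. The interval of 36 was tRNA-like, and RefSeq lists 5 tRNA genes between the flanking genes. These small RNA genes were chosen after their values were seen.

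Each of the signalling gene lists had 1 or 2 genes with clustered intervals. Of genes with any interval in the authors' list, 318 of 3677 (8.65%) had a clustered one. The count was 2 of 6 for AP-1 family genes (JUN and FOSL1), 1 of 3 for NO-cGMP signalling genes (PRKG1), 1 of 9 for growth factor and RAS-PI3K genes (SPRY2), 1 of 10 for matrix and adhesion genes (CD44), and 2 of 7 for TGF-β and Hippo genes (SMAD7 and WWTR1). Among microRNA genes it was 5 of 34 (14.7%) and among small nucleolar RNA genes 6 of 72 (8.33%). With such small lists these counts are given as descriptions beside the 8.65% of all genes.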

How the data were processed

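By the series' design text, 75-nt reads were aligned to hg19 with BWA and kept if they had at most 2 mismatches and a unique alignment, and intervals were called with MACS in the 1 ChIP library. Tool versions, and whether MACS took the input as control, were not given in the sources used here. Per the file headers, the authors' list gives 2 signal columns, the peak density (height) and the average density, and a score, deposited by the authors as a -10 log10 transform of the MACS p-value; its lowest value was 70 (p = 1e-07). These values are the authors' own and only describe or rank intervals within the list.

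Summits were chained at 10000 bp with pandas 2.3.3 and numpy 2.4.6 under Python 3.11.15. Positions came from GENCODE release 44 mapped to GRCh37, sequences from the GRCh37 primary assembly with pysam 0.24.0, exact 95% binomial intervals from scipy 1.17.1, and figures from matplotlib 3.10.9. Words were searched in 200 bp around summits, and in windows of the same length centred 2000 bp to either side. Chaining and word searches were tested on simulated data. The design held no test, because there is 1 library.

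Members, lists and rules were chosen with earlier results of these data known. Named were genes of clusters with 5 or more intervals, of the 10 clusters with the tallest interval, of the 3 largest clusters of each composition, of the clusters with the 3 least height differences and the 3 greatest ratios, the 5 genes with most clustered intervals, and list members with 2 or more. Genes outside this rule serve as examples. Some loci that the rule sets are not reported here. Alternatives were other chaining distances and score limits, merged intervals, promoter windows, transcript sets, word windows and strength columns. The height limit of 40, the tRNA-like pair, clusters without tall intervals, and leaving out chromosome 6 were chosen after seeing the data.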

Additional observations from a re-analysis of the deposited data

How the results depend on the processing

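No paired analysis was possible because there is 1 ChIP library and no test. Of 105 values recomputed, 56 stayed within the main value's 95% interval (counts, within 1.5 times), and 49 moved; the causes were not tested beyond what each setting's construction shows.

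Chaining at 5000 bp left 393 clustered intervals in 179 clusters, with CpG islands at 19.1%. Chaining at 20000 bp gave 1004 clustered intervals, 33.6% of clusters outside only, 17.3% tall intervals, and B box and tRNA-like shares of 11.95% and 14.1%. Intervals at or above the median score gave 274 in 109 clusters, and those above the upper quartile 162 in 58. At the median score the gene body share was 22.3%, the outside share 63.5%, outside-only clusters 50.5%, gene-body-only clusters 18.3%, promoter with gene body clusters 8.26%, tall intervals 46.4%, the median height 31, and the AP-1, B box and tRNA-like shares 12.04%, 31.4% and 37.2%.

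A promoter window of 5000 bp gave 29.9% promoter, 22.7% gene body and 47.4% outside, with 6.91% of clusters promoter with gene body and 24.4% promoter only. Starts of all annotated transcripts, non-coding ones included, gave 29.9% promoter, 27.3% gene body and 42.8% outside, with 28.0% of clusters outside only, 18.9% promoter with outside and 13.8% promoter only. In 100 bp windows the AP-1, B box and tRNA-like shares were 9.19%, 12.1% and 7.48%, and in 400 bp windows the AP-1 share was 30.8%. The tallest interval was under 1.5 times the next in 76.0% of clusters by height, 53.5% by score and 87.6% by average density.

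In clusters with no tall interval the gene body share was 39.1%, the outside share 43.97%, the median height 14, and the AP-1, B box and tRNA-like shares 23.7%, 2.11% and 1.69%. Beside single intervals under 40 the AP-1 share was then higher in clustered intervals (23.7% and 22.2%). The B box (2.11% and 2.55%) and tRNA-like shares (1.69% and 1.88%) were lower. The sets are unequal, because intervals under 40 in mixed clusters are left out of the clustered side only. Over all 506 clustered intervals under 40 the AP-1, B box and tRNA-like shares were 22.5%, 3.56% and 3.56%, each higher than in single intervals under 40. Without chromosome 6 the outside share was 48.1%, tall intervals 11.6% (7.30% in single intervals), and the B box and tRNA-like shares 8.21% and 9.89%. The gene body share was lower in clustered than in single intervals in 3 of 9 settings and higher in 6. The promoter and CpG island shares were lower, and the outside share higher, in clustered than in single intervals under each of these settings for which they were computed. The CpG island share here pools all position classes. Depth is unknown, so how many neighbours fell under the score limit is not known.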
